A study of Mus musculus with 28 samples.

Results

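Intracisternal A-particles (IAPs) are young endogenous retroviruses of the mouse, and a solitary LTR is an IAP long terminal repeat annotated with no internal retroviral part. Such integrants were taken from the repeat annotation of the series as those whose every LTR part was named IAPLTR or IAPEY_LTR and whose name held no internal part. The annotation listed 3449 of them, and 202 (5.86%) had at least 16 RNA reads summed over the 16 RNA libraries and entered the tests of single integrants. The minimum was set on reads summed over all groups, so an LTR without reads in some groups could pass it only through the groups in which it was high. Over all classes of transposable elements (TEs), 123880 of 3404964 integrants (3.64%) passed the same minimum. Among IAPEz proviruses, which hold an internal part, 1551 of 1657 with IAPLTR1 (93.6%) and 968 of 1212 with IAPLTR2 (79.9%) passed it. These shares were not adjusted for the length of the integrants or for unique mapping of reads.

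The RNA libraries came from naïve mouse embryonic stem cells (mESC) of the J1 line (129S4/SvJae), grown in N2B27 medium with 2i inhibitors and LIF, transduced with a lentiviral hairpin vector, selected with puromycin and collected on day 5. Wild-type (WT) cells, DNMT TKO cells (knockout of Dnmt1, Dnmt3a and Dnmt3b) and TET TKO cells (knockout of Tet1, Tet2 and Tet3) each carried either the empty vector (shEmpty) or a hairpin against Kap1 (shKap1). WT and DNMT TKO cells gave 3 libraries with each hairpin and TET TKO cells gave 2. Each knockout was a line made in another laboratory, so genotype and line cannot be told apart. The replicates are described in the study as independent experiments, and p-values measure the spread between them. For the marks on the LTRs, H3K4me3 and H3K27me3 chromatin immunoprecipitation (ChIP) peaks and 5-hydroxymethylcytosine (5hmC) read counts of the same series were used, with deposited KAP1 and H3K9me3 region sets that rest on ChIP data published earlier.

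An IAP provirus is integrated with the same LTR at both ends, and recombination between the pair deletes the internal part and leaves a solitary LTR. The LTR holds the promoter and the polyadenylation signal of the element, so a solitary LTR can still start or end transcripts although it encodes no protein. In mESC, KRAB zinc finger proteins bind such sequences and recruit KAP1 (encoded by Trim28), which brings the H3K9 methyltransferase SETDB1 and DNA methylation, while TET enzymes oxidise 5-methylcytosine to 5hmC.

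The name "solitary" did not hold for every integrant. Of the 202 tested LTRs, 25 (12.4%) lay within 400 bp of an IAP integrant annotated with an internal part, 10 of them within 1 bp and 23 within 50 bp, and these are called flanking LTRs here. Among all annotated LTRs 433 of 3449 (12.6%) were flanking, which leaves 3016 annotated and 177 tested free-standing LTRs. Flanking LTRs held 2224 of the 15458 reads on tested LTRs and free-standing LTRs held 13234. The reads were few and unequally spread. All 3449 LTRs together took 19319 reads in 16 libraries, 2135 of them took none and 1112 took 1 to 15. The median tested LTR had 33.5 reads, 32 had at least 100, and the 5 with most reads held 3523 reads (18.2% of the total). Near the minimum, 46 tested LTRs had 16 to 20 reads and 59 untested LTRs had 12 to 15. The genome annotation is of C57BL/6J mice, and only uniquely mapped reads were counted. An LTR that was silent, one that is absent from the 129 genome and one where reads cannot map uniquely thus cannot be told apart.

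The 5 LTRs below are among those whose rises are described further on, with both flanking and free-standing LTRs shown. The last was chosen after its values were seen, and the others by a rule on the size of their changes. The first 300 bases of each are shown in mm9, on the plus strand on which all 5 are annotated, with each CpG, the site of DNA methylation, in capitals.
IAPLTR2b at chr17:32856744-32857043: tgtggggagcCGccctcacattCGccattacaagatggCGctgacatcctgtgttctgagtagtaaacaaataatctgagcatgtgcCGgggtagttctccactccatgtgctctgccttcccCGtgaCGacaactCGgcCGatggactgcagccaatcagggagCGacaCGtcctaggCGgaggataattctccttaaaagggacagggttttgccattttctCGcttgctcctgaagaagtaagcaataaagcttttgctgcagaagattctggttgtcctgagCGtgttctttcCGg
IAPLTR2b at chr16:17995505-17995804: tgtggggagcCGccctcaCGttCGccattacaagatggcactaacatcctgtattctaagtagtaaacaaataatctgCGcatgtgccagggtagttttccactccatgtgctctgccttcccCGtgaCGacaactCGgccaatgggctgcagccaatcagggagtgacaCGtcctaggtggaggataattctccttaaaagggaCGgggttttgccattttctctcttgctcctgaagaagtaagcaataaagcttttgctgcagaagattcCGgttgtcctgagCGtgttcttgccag
IAPLTR2_Mm at chr13:66720320-66720619: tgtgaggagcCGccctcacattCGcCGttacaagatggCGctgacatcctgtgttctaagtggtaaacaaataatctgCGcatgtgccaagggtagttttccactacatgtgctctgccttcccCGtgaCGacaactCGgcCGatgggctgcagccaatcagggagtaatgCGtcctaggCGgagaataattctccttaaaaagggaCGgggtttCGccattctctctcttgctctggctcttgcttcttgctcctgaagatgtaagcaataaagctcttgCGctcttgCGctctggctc
IAPLTR2_Mm at chr16:13930091-13930390: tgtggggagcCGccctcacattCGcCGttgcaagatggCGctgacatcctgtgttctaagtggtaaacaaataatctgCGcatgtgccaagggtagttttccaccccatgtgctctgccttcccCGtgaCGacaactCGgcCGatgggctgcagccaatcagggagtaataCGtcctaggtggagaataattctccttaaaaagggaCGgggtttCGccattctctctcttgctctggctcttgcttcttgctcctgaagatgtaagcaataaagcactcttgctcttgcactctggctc
IAPLTR2_Mm at chr11:114805535-114805834: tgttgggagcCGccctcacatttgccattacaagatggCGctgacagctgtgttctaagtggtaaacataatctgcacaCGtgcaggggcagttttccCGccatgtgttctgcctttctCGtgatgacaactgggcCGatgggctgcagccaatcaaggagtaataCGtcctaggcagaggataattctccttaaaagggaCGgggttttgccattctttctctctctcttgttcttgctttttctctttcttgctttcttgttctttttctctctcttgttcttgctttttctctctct
The first pair are flanking LTRs and the other 3 are free-standing. The stretches shown hold 14, 11, 15, 12 and 8 CpGs in the order given, and the whole LTRs hold 14, 13, 22, 20 and 16.

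Each of these 5 LTRs holds the letters AATAAA, the polyadenylation signal, on the strand of the element, and none holds TATAA. The first motif was found in 184 of the 201 tested LTRs with sequence in the genome file (91.5%) and in 2692 of 3059 annotated ones (88.0%). The second was found in 66 tested LTRs (32.8%) and in 1076 annotated ones (35.2%). A match to such letters is a description of the sequence and no evidence of use. CpG density had a median of 4.93 per 100 bp in tested and 4.57 in annotated LTRs, and the median length was 416 bp in tested and 368 bp in annotated ones.

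By position, 132 of those 201 tested LTRs lay between genes (65.7%, against 80.7% of the annotated LTRs). A further 29 lay in an intron on the strand of the gene (14.4%, against 5.88%) and 24 in an intron on the opposite strand (11.9%, against 12.0%). Exons on the same strand held 10 (4.98%, against 0.686%) and exons on the opposite strand held 6 (2.99%, against 0.752%). Reads on an LTR inside a transcribed gene may come from the gene, and reads that start in an LTR were not told apart from reads that pass through it.

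Gene reads per library ranged from 18108431 to 29373696 and reads on solitary IAP LTRs from 334 to 2646. Kap1 mRNA (Trim28) averaged 1752 CPM (read counts scaled to the gene reads of the library) with shEmpty and 165 CPM with shKap1 in WT cells, 1868 and 427 CPM in DNMT TKO cells, and 1835 and 166 CPM in TET TKO cells. On the log2 scale Trim28 thus fell by 3.41 ± 0.16 (SE), by 2.13 ± 0.15 and by 3.47 ± 0.20, and the knockdown was weaker in DNMT TKO than in WT cells by 1.28 ± 0.21 (edgeR, adjusted p = 0.0008). The 7 matched markers of naïve mESC (among them Pou5f1, Nanog and Esrrb) summed to 3647 to 3858 CPM in WT shEmpty and 2200 to 2357 CPM in WT shKap1 libraries, with 3826 to 3888 against 2479 to 2817 CPM in DNMT TKO and 3636 to 3797 against 2733 to 2782 CPM in TET TKO cells. Of the 7 markers 3, 1 and 1 were called lower in WT, DNMT TKO and TET TKO cells (against 6.54%, 2.41% and 4.46% of all genes). At an adjusted p under 0.05 without the fold threshold (edgeR), 6, 5 and 5 were lower and 0 higher. Pou5f1 did not pass in any (adjusted p = 0.14, 0.055 and 0.47). The summed mean of endoderm markers went from 6.49 to 11.5 CPM in WT cells, and that of the neural marker Pax6 from 1.16 to 7.61 CPM. Trophoblast markers went from 22.0 to 11.3 CPM there, mesendoderm markers from 3.89 to 1.93 CPM and fibroblast markers from 2.90 to 1.99 CPM, the last against 3.51 to 6.58 CPM in DNMT TKO cells. With shEmpty the DNMT TKO means were 10.5 CPM for trophoblast and 12.5 CPM for mesendoderm markers. In WT cells 1 of 3 trophoblast, 1 of 2 mesendoderm and 1 of 2 fibroblast markers was called lower, and 1 of 3 endoderm markers and Pax6 were called higher, so these sums do not stand for every marker in a list. The part of these markers in the results was not tested. In bulk RNA, fewer cells of a type and less RNA per cell cannot be told apart.

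Kap1 knockdown raised the summed RNA of solitary IAP LTRs in all 3 genotypes, and it did so far less than that of the proviruses. Free-standing LTRs took 324, 491 and 522 reads in the WT shEmpty libraries and 847, 1182 and 912 in the WT shKap1 libraries. In DNMT TKO cells they took 363, 546 and 486 reads with shEmpty and 2057, 1764 and 2226 with shKap1, and in TET TKO cells 815 and 759 against 1750 and 1668. In every genotype all shKap1 libraries were above all shEmpty libraries. Relative to gene reads these sums were 17.98 ± 0.50 (SD, n = 3) against 48.1 ± 3.42 CPM (n = 3) in WT, 18.7 ± 0.215 against 88.1 ± 9.27 CPM (n = 3 each) in DNMT TKO and 28.6 ± 0.159 against 83.3 ± 3.25 CPM (n = 2 each) in TET TKO cells. The log2 change of all annotated solitary LTRs was 1.70 ± 0.08 (SE) in WT, 2.49 ± 0.08 in DNMT TKO and 1.71 ± 0.10 in TET TKO cells (edgeR quasi-likelihood test with Benjamini-Hochberg adjustment, adjusted p = 4.9e-12, 1.3e-14 and 3.7e-11). For free-standing LTRs alone it was 1.42 ± 0.08, 2.24 ± 0.08 and 1.54 ± 0.10. Both sums include the free-standing LTRs within Dkc1, Tcp11l1, Ppib and Gramd1b, described further on. These held 186, 154, 127 and 147 reads over the WT shEmpty libraries, and none of them was called on knockdown in WT cells. Reads of these host genes were not told apart, and their part in the size of the rise was not tested. The 2839 free-standing LTRs under 16 reads, none of which was tested singly, changed together by 1.90, 2.79 and 2.17.

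The log2 changes of flanking LTRs lay between those of free-standing LTRs and proviruses. They took 10, 8 and 4 reads in the WT shEmpty libraries and 190, 291 and 213 in the WT shKap1 libraries. In DNMT TKO cells the reads went from 12, 14 and 16 to 461, 455 and 420, and in TET TKO cells from 11 and 14 to 235 and 253. Their sum rose by 5.22 ± 0.26 (SE), 5.11 ± 0.23 and 4.70 ± 0.29 on the log2 scale in WT, DNMT TKO and TET TKO cells. IAPEz proviruses with IAPLTR1 rose by 5.64 ± 0.26, 6.35 ± 0.27 and 5.59 ± 0.32, from 83.6 ± 7.13 (SD, n = 3) to 4170 ± 462 CPM (n = 3) in WT cells.

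The distance between the LTRs and the proviruses was tested in each library as a ratio. For every 100 reads on proviruses with IAPLTR1, solitary LTRs took 22.0 ± 2.11 (SD, n = 3) reads in WT shEmpty and 1.43 ± 0.063 (n = 3) in WT shKap1 libraries. The values were 29.9 ± 8.88 and 1.94 ± 0.165 in DNMT TKO (n = 3 each) and 51.4 ± 0.072 and 3.49 ± 0.197 in TET TKO cells (n = 2 each). On average over genotypes the ratio to IAPLTR1 proviruses fell by 3.91 on the log2 scale with the knockdown, and the ratio to IAPLTR2 proviruses fell by 4.04. The exact two-sided permutation test of the hairpins within genotype gave p = 0.000833 for each ratio, the smallest value that its 2400 arrangements allow and the same after adjustment over both ratios. For flanking LTRs alone the ratio fell by 0.82 (exact permutation p = 0.01) and 0.95 (exact permutation p = 0.0083). The change of the ratio to IAPLTR1 proviruses was then -0.32 in WT cells, where the shEmpty and shKap1 libraries overlapped, -1.28 in DNMT TKO and -0.87 in TET TKO cells.

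**Figure D1:**
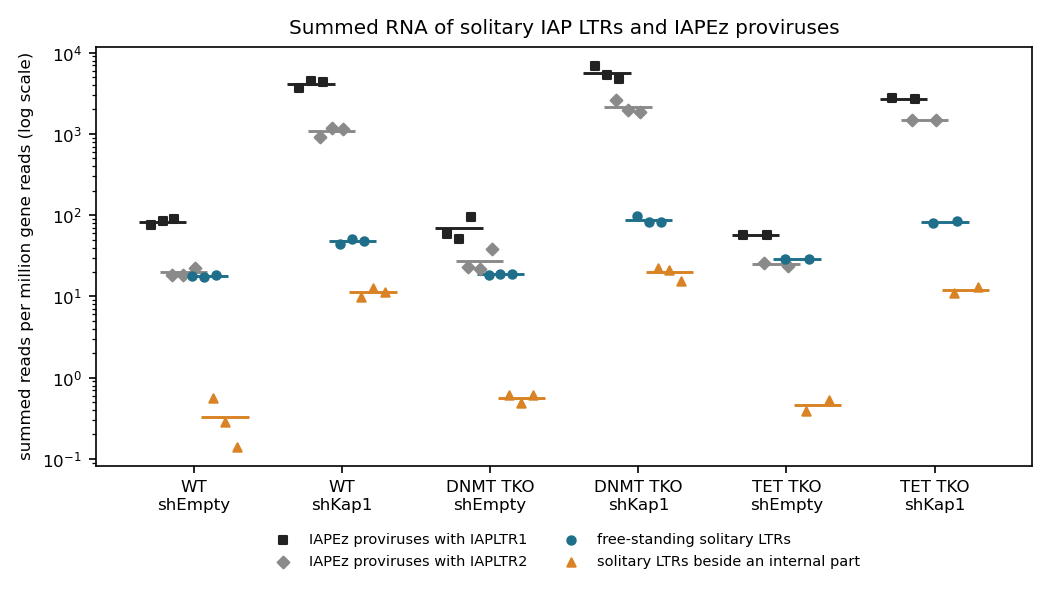
Summed CPM on a log axis in each of the 16 libraries, by genotype and hairpin, for IAPEz proviruses with IAPLTR1, IAPEz proviruses with IAPLTR2, free-standing solitary LTRs and solitary LTRs beside an internal part; points are libraries and bars are group means. Free-standing LTRs stay between 17.98 and 88.1 CPM in the group means, whereas proviruses with IAPLTR1 go from 83.6 to 4170 CPM in WT cells.

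The genotypes differed in the size of the rise. The knockdown effect on all solitary LTRs was larger in DNMT TKO than in WT cells by 0.79 ± 0.11 (SE) on the log2 scale (edgeR, adjusted p = 5.6e-05). Kap1 mRNA was lowered less in DNMT TKO cells, and its part in the difference was not tested. Without the 5 LTRs with most reads the difference was 0.37 ± 0.13 (adjusted p = 0.059). The effect in TET TKO cells differed from that in WT cells by 0.01 ± 0.13 (adjusted p = 0.98). With shEmpty, the summed level was higher in TET TKO than in WT cells by 0.67 ± 0.09 (adjusted p = 2.3e-05). In that contrast IAPLTR2_Mm at chr5:115149485-115149936 went from 0.138 to 2.82 CPM and at chr16:13930091-13930567 from 0.0185 to 1.54 CPM. IAPLTR2_Mm at chr11:19737357 went from 15 to 148 reads. Of single LTRs 9 were called higher and 4 lower, and the summed difference without these IAPLTR2_Mm together was not computed. The DNMT TKO and WT levels with shEmpty differed by 0.07 ± 0.08 (adjusted p = 0.56), but by 0.67 (adjusted p = 1.5e-05) without the 5 LTRs with most reads. The sum without those 5 still held IAPLTR2a at chr11:72876966-72877368, which went from 4 to 240 reads. With scaling from TE counts, over all LTRs, the levels differed by 0.31 ± 0.08 (adjusted p = 0.0044). These contrasts share the WT shEmpty libraries.

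By name, 7 of the 8 kinds of solitary LTR rose with the knockdown at an adjusted p under 0.05 in all 3 genotypes, and IAPLTR3 was called in none. With the 2-fold threshold added, as in the shares given next, IAPEY_LTR was no call in WT and TET TKO cells. Of all 1198 TE names summed in this way, 26.7%, 31.1% and 35.1% were called higher in WT, DNMT TKO and TET TKO cells and 1.25%, 0.250% and 0.751% lower, where a call means an adjusted p under 0.05 and a change of at least 2-fold. The knockdown effect was called larger in DNMT TKO than in WT cells for 5.34% of these names and smaller for 2.42%, and the effect in TET TKO cells for 4.76% and 1.75%. With shEmpty, 6.34% and 5.84% of the names were called higher and lower in DNMT TKO than in WT cells, and 5.34% and 2.09% in TET TKO than in WT cells. The name IAPLTR2_Mm, the most numerous with 1040 annotated and 98 tested LTRs, changed by 1.74 ± 0.09 (SE), 2.80 ± 0.09 and 1.58 ± 0.11 on the log2 scale in WT, DNMT TKO and TET TKO cells. Its effect was larger in DNMT TKO than in WT cells by 1.06 ± 0.13 (adjusted p = 1.1e-05), or 0.92 without the 5 LTRs with most reads, and its shEmpty level was 1.29 ± 0.10 higher in TET TKO than in WT cells (adjusted p = 1.9e-08). The level holds the LTRs at chr5:115149485, chr16:13930091 and chr11:19737357, each called higher there, and was not computed without them together. IAPLTR2a, with 468 annotated LTRs, changed by 1.02 ± 0.15, 1.54 ± 0.14 and 1.69 ± 0.18, and with shEmpty it was 0.97 ± 0.15 higher in DNMT TKO than in WT cells (adjusted p = 5e-05). The IAPLTR2a at chr11:72876966-72877368 alone went from 4 to 240 reads in that contrast, and the difference without it alone was not computed. IAPEY_LTR, the LTR of a separate IAP group, changed least among the names that rose, by 0.80 ± 0.16, 1.17 ± 0.17 and 0.93 ± 0.20, and was thus under 2-fold in WT and TET TKO cells. IAPLTR3 changed by -0.47 ± 0.45 (adjusted p = 0.4), -0.67 ± 0.43 (0.21) and -0.11 ± 0.58 (0.89), with only 101 reads on its 97 LTRs.

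In other names the value differed between all and free-standing LTRs. IAPLTR1_Mm changed by 3.01 ± 0.21 (SE), 3.58 ± 0.21 and 2.93 ± 0.29 over all 80 annotated LTRs in WT, DNMT TKO and TET TKO cells, and by 1.79, 3.00 and 2.10 over the free-standing ones, which differed between DNMT TKO and WT cells by 1.21 ± 0.35 (edgeR, adjusted p = 0.023; 0.26 over all LTRs). IAPLTR2b changed by 2.87 ± 0.25, 3.33 ± 0.21 and 2.80 ± 0.26 over all 626, and by 1.47, 1.97 and 1.62 over the free-standing ones. IAPLTR4 changed by 3.91 ± 0.27, 3.12 ± 0.27 and 4.18 ± 0.31 over all 375, and by 4.59 ± 0.35, 2.72 ± 0.35 and 4.50 ± 0.39 over the free-standing ones. For these the effect differed between DNMT TKO and WT cells by -1.87 ± 0.61 (adjusted p = 0.046, or 0.3 over all LTRs), the only name with a called difference in that direction among free-standing LTRs. The LTRs at chr1:95795501-95795833 and chr1:95864611-95864943 held 202 and 116 of the 502 reads in this sum, and the difference without them was not computed.

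The pattern of IAPLTR1a_Mm rested on 1 integrant. Over all 153 LTRs it changed by 1.22 ± 0.16 (SE), 4.89 ± 0.24 and 1.35 ± 0.17, so that the effect was larger in DNMT TKO than in WT cells by 3.67 ± 0.32 (adjusted p = 1.4e-07). Without the 5 LTRs with most reads, of which the LTR at chr2:104534481-104534814 described further on is the only IAPLTR1a_Mm, the changes were 5.50, 4.99 and 4.38 and the difference was -0.50 (adjusted p = 0.69).

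**Figure D2:**
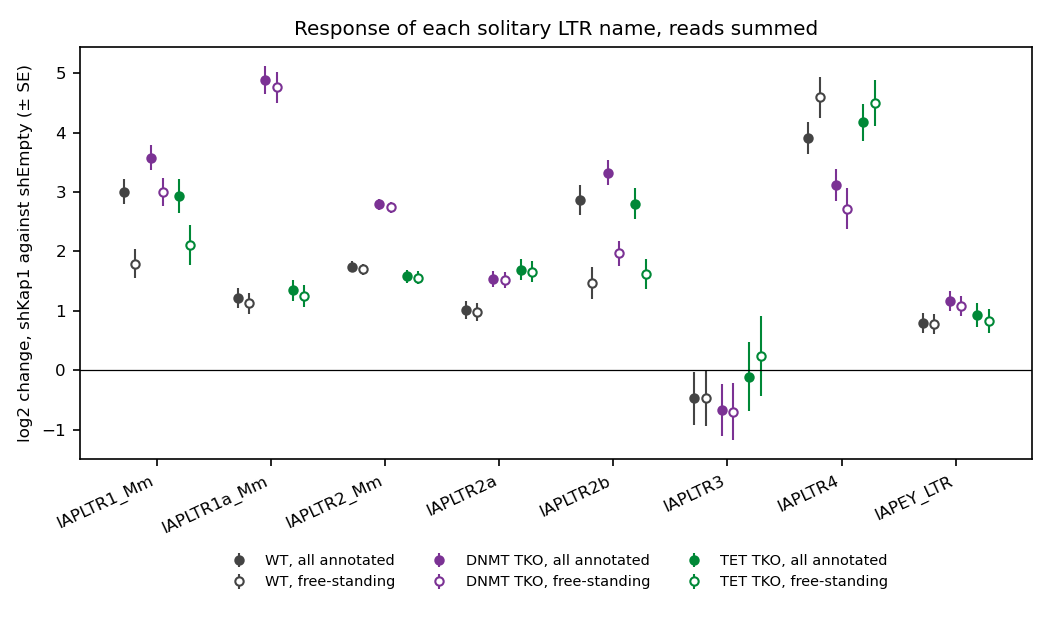
Log2 change of summed reads, shKap1 against shEmpty, for each of the 8 LTR names in WT, DNMT TKO and TET TKO cells, with the standard error; filled points are sums over all annotated LTRs and open points over free-standing LTRs. The filled IAPLTR3 points lie below 0 in each genotype (the open one is above 0 in TET TKO cells), and the filled IAPLTR1a_Mm point goes from 1.22 in WT to 4.89 in DNMT TKO cells.

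Of the 202 tested LTRs, Kap1 knockdown called 63 higher and 1 lower in WT cells, where 12.1% and 2.05% of all tested TE integrants were called. In DNMT TKO cells 109 were higher and 2 lower (15.0% and 0.944% of all TE integrants). In TET TKO cells 74 were higher and 0 lower (14.7% and 0.971%), with 2 lower at an unadjusted p under 0.05 and 0 called lower by DESeq2 or limma-voom. For comparison, 1402, 1484 and 1316 of 1551 IAPLTR1 proviruses were called higher. With DESeq2 the LTRs called higher were fewer, 36, 61 and 40, and 82 of the 202 had no adjusted p from it in WT cells. Called higher in all 3 genotypes were 32 LTRs (15.8%, against 6.43% of all tested TE integrants), of which 6 were flanking, and 56 (27.7%, against 77.0%) were called higher in none. Free-standing LTRs were called higher in 56, 89 and 63 of 177 cases and flanking LTRs in 7, 20 and 11 of 25.

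Many of these LTRs took no reads with shEmpty, which the minimum on summed reads partly fixes: 130, 94 and 114 of the 202 had 0 reads in every shEmpty library of WT, DNMT TKO and TET TKO cells. Of the LTRs called higher, 46 of 63 in WT, 64 of 109 in DNMT TKO and 57 of 74 in TET TKO cells had 0 reads in every shEmpty library. Their folds are lower bounds against a floor of 3 reads over the shEmpty group, with medians of 4.48, 6.48 and 5.80 and highest bounds of 59.0, 86.4 and 35.7. By name, IAPLTR2_Mm gave 30, 56 and 37 calls of 98 LTRs, IAPLTR2a 7, 13 and 9 of 23, IAPLTR1_Mm 11, 16 and 7 of 24 and IAPLTR1a_Mm 7, 10 and 9 of 17. IAPLTR2b gave 3, 8 and 6 of 18 and IAPLTR4 5, 4 and 4 of 9. IAPEY_LTR gave 0, 2 and 2 of 10 and IAPLTR3 0 of 3 in each genotype.

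Among the LTRs that rose strongly in WT cells was the flanking IAPLTR2b at chr17:32856744-32857047, 1 bp from an IAP internal part. It took 0 reads in each WT shEmpty library and 50, 51 and 44 in the WT shKap1 libraries, at least 59.0-fold higher (edgeR, adjusted p = 1.4e-35). It took 1, 0 and 1 against 63, 39 and 48 reads in DNMT TKO and 0 and 0 against 30 and 36 in TET TKO cells. Its groups did not overlap in any genotype. The flanking IAPLTR1_Mm at chr7:86486981-86487482, on the strand opposite to an exon of Abhd2, took 0, 1 and 1 reads in WT shEmpty and 38, 93 and 79 in WT shKap1 libraries, a ratio of 128 (95% counting interval 35.0 to 1065). The DNMT TKO reads went from 2, 0 and 0 to 31, 9 and 6, which is uneven between libraries.

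A free-standing LTR with a strong rise in WT cells was IAPLTR2_Mm at chr11:114805535-114806097. Its reads went from 0, 1 and 0 to 38, 40 and 28 in WT, from 0, 0 and 0 to 14, 25 and 13 in DNMT TKO and from 0 and 2 to 73 and 77 in TET TKO cells. The ratio was 129 (counting interval 22.7 to 5158) in WT and 100 (27.3 to 837) in TET TKO cells, and the rise was at least 18.7-fold in DNMT TKO cells. All shKap1 libraries lay above all shEmpty libraries in each genotype. A second free-standing IAPLTR2_Mm, at chr5:34102315-34102789 in an intron of Letm1 on the opposite strand, took 0 reads in every shEmpty library of every genotype. It took 6, 13 and 11 reads in WT, 24, 23 and 18 in DNMT TKO and 28 and 13 in TET TKO shKap1 libraries, at least 12.2-fold, 23.4-fold and 18.3-fold higher.

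The LTR with the highest lower bound of all was the flanking IAPLTR2b at chr16:17995505-17995820. It took 0 reads in all 8 shEmpty libraries. With shKap1 it took 4, 8 and 5 reads in WT, 102, 51 and 87 in DNMT TKO and 49 and 31 in TET TKO cells, at least 6.92-fold, 86.4-fold and 35.7-fold higher. Every DNMT TKO and TET TKO library with shKap1 was thus above every WT library, but the difference between the knockdown effects could not be estimated where both shEmpty groups were at 0.

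**Figure D3:**
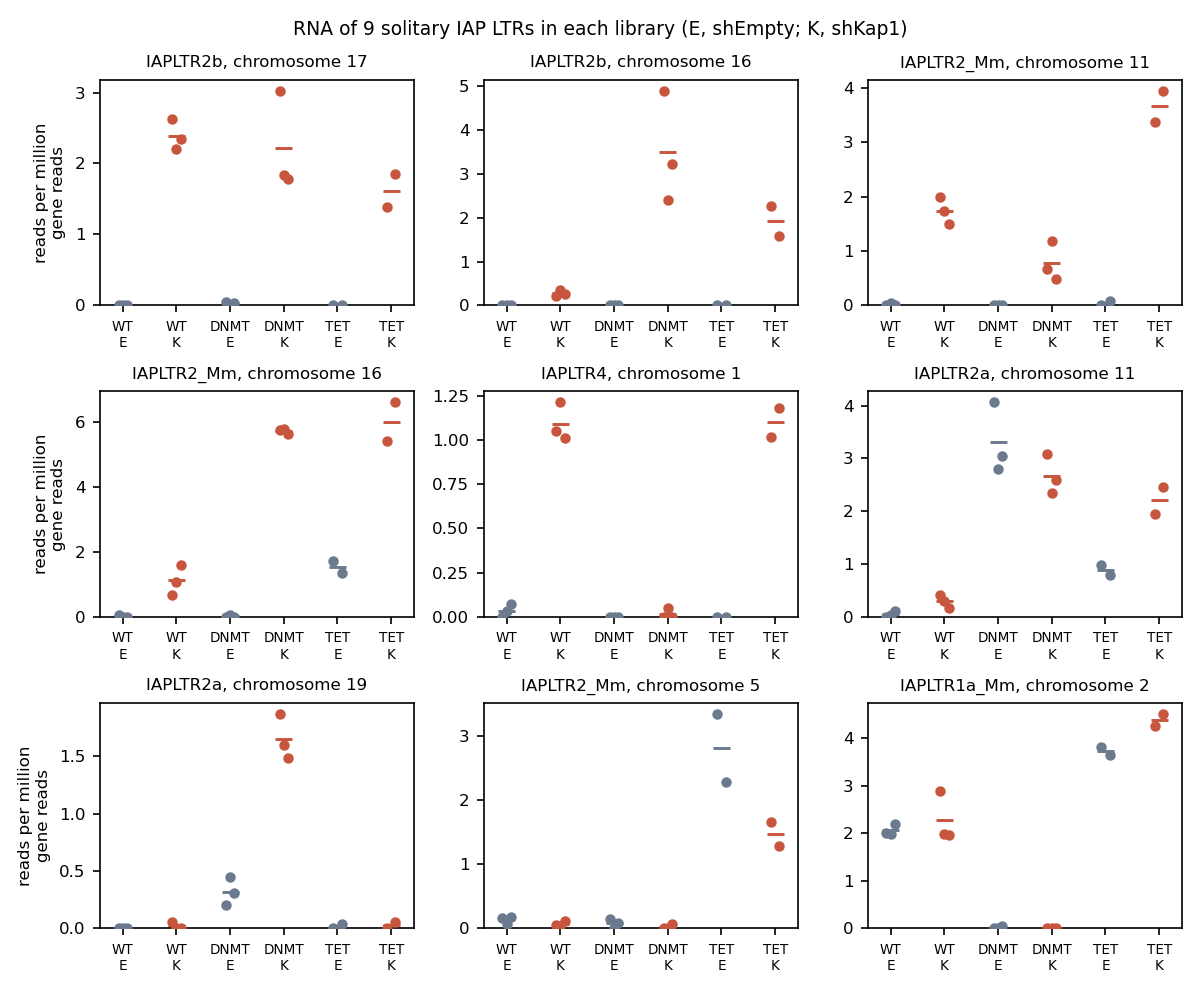
CPM in each of the 16 libraries for 9 solitary LTRs, by genotype and hairpin, with points for libraries and bars for group means. The first 3 LTRs rise in each genotype, IAPLTR4 on chromosome 1 rises in WT and TET TKO but reaches at most 1 read in a DNMT TKO library, and IAPLTR1a_Mm on chromosome 2 has a single read in 6 DNMT TKO libraries.

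Some LTRs depended on the genotype as much as on the hairpin. The free-standing IAPLTR2_Mm at chr16:13930091-13930567, in an intron of Mpv17l on the strand of the gene, took 1, 0 and 0 reads in WT shEmpty and 13, 25 and 30 in WT shKap1 libraries. The DNMT TKO libraries went from 0, 2 and 0 to 120, 123 and 152 reads. In TET TKO cells it took 49 and 36 reads with shEmpty and 117 and 129 with shKap1. This LTR was the 1 call of a knockdown effect that differed between TET TKO and WT cells (2 calls without DNMT TKO shKap1 library 3), being lower in TET TKO by 3.94 ± 0.75 (SE) on the log2 scale (edgeR, adjusted p = 0.00013; 0.831% and 0.242% of TE integrants were called higher and lower). No LTR was called higher in that contrast by edgeR, with 4 at an unadjusted p under 0.05, 0 by DESeq2 and 7 by limma-voom. The shEmpty level of this LTR was higher in TET TKO than in WT cells with a ratio of 115 (20.1 to 4593). Its host gene Mpv17l went from 19.3 to 43.2 CPM in WT, from 21.1 to 108 in DNMT TKO and from 41.8 to 107 in TET TKO cells.

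Between DNMT TKO and WT cells the knockdown effect was lower in 3 LTRs and higher in 0 (0.473% and 1.33% of TE integrants were called lower and higher), with 6 higher at an unadjusted p under 0.05, 0 by DESeq2 and 16 by limma-voom. The count of calls fell to 0 without the first WT shEmpty library and to 1 without WT shEmpty library 2 or 3, WT shKap1 library 2 or DNMT TKO shEmpty library 2. IAPLTR2a at chr11:72876966-72877368, inside an exon of 1200014J11Rik on the same strand, took 0, 1 and 3 reads in WT shEmpty and 8, 7 and 3 in WT shKap1 libraries. In DNMT TKO cells it took 80, 81 and 79 against 64, 50 and 70 reads, and in TET TKO cells 28 and 21 against 42 and 48. The effect was lower in DNMT TKO cells by 2.65 ± 0.66 (SE, adjusted p = 0.0094), and the shEmpty level was 5.80 ± 0.42 higher than in WT cells on the log2 scale (adjusted p = 1.8e-40). The host gene 1200014J11Rik was higher by 0.94, at 181 against 94.1 CPM.

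The other pair lay on chromosome 13. The free-standing IAPLTR2_Mm at chr13:66720320-66720748 took 0 reads in each WT shEmpty library and 8, 13 and 9 in the WT shKap1 libraries, and in DNMT TKO cells 2, 8 and 2 against 21, 7 and 12, groups that overlap in reads but not in CPM. The fitted difference was -4.69 (adjusted p = 0.038, or 0.053 with the replicate number as a block), a fit against a group at 0 reads. IAPLTR2_Mm at chr13:94425631-94426065, in an exon of Bhmt2, took 0, 3 and 1 reads in WT shEmpty, 3, 15 and 10 in WT shKap1, 8, 16 and 7 in DNMT TKO shEmpty and 7, 6 and 11 in DNMT TKO shKap1 libraries, a difference of -3.22 ± 0.84 (adjusted p = 0.011).

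With shEmpty, 10 LTRs were called higher and 7 lower in DNMT TKO than in WT cells (3.48% and 6.45% of TE integrants), a total that was 11 without WT shEmpty library 3 or DNMT TKO shEmpty library 3. In TET TKO cells 9 were higher and 4 lower than in WT cells (1.74% and 2.33%). Besides the LTR in 1200014J11Rik, IAPLTR2a at chr19:16087060-16087483 was high in DNMT TKO cells. Its reads were 4, 13 and 8 with shEmpty and 39, 34 and 40 with shKap1, against at most 1 read in any WT or TET TKO library. The shEmpty level was at least 8.31-fold higher than in WT cells, and the knockdown raised it by 2.30 ± 0.39 (SE) on the log2 scale (adjusted p = 6.3e-08). IAPLTR2_Mm at chr5:115149485-115149936 was instead high in TET TKO cells, where shEmpty libraries held 95 and 61 reads and shKap1 libraries 36 and 25, and between 0 and 5 in the other libraries. It was 4.33 ± 0.43 higher in TET TKO than in WT shEmpty libraries (adjusted p = 8.6e-21).

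Of the 5 LTRs with most reads, the LTR in Mpv17l was described above and the other 4 already had reads in every WT shEmpty library and were not called on knockdown in WT cells. IAPLTR1a_Mm at chr2:104534481-104534814, opposite to an exon of Tcp11l1, took 36, 56 and 62 reads in WT shEmpty and 55, 46 and 37 in WT shKap1 libraries. It took 108 and 97 against 92 and 88 reads in TET TKO cells. Only 1 read fell on it in the 6 DNMT TKO libraries, a ratio to WT with shEmpty of 0.00647 (counting interval 0.000163 to 0.0366, adjusted p = 3.3e-35). IAPLTR2_Mm at chr9:65912545-65912963, in an intron of Ppib, took 26 to 80 reads in every library, and IAPLTR2a at chr9:40122538-40122708, in an exon of Gramd1b, took 17 to 58. The latter was called higher on knockdown in TET TKO cells (1.08 ± 0.37, adjusted p = 0.023) and lower in TET TKO than in WT cells with shEmpty (-1.59 ± 0.33, adjusted p = 8.8e-05). IAPEY_LTR at chrX:72349198-72349579, in an intron of Dkc1, changed by 0.81 ± 0.23 (adjusted p = 0.0047) in WT cells, under 2-fold. It was lower by 1.80 ± 0.27 in DNMT TKO than in WT cells with shEmpty, on 16, 20 and 17 against 46, 75 and 65 reads.

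IAPLTR4 at chr1:95864611-95864943 rose in WT cells from 0, 1 and 2 to 20, 28 and 19 reads (ratio 27.3, counting interval 8.94 to 136) and in TET TKO cells from 0 and 0 to 22 and 23 reads (at least 20.1-fold). A single read fell on it in the 6 DNMT TKO libraries. Other LTRs, chosen after their values were seen, took few or no reads in whole genotypes. In all, 23 of the 202 LTRs had 0 reads in the 6 WT libraries, 12 in the 6 DNMT TKO libraries and 20 in the 4 TET TKO libraries. These LTRs passed the minimum only through the other genotypes, and 0 reads are more easily met in fewer libraries. No share over all TE integrants is set beside these counts, so they are not read as a trait of the LTRs. IAPLTR2a at chr4:13595710-13596102 took 59, 62 and 68 reads in DNMT TKO shKap1 libraries, 1, 1 and 3 in WT shKap1 libraries, 0 in every TET TKO library and at most 1 in any shEmpty library. IAPLTR2_Mm at chr11:19737357-19737836 took 84 and 64 against 38 and 29 reads in TET TKO cells, 1 to 7 in each WT library and 0 in all 6 DNMT TKO libraries. IAPLTR1_Mm at chr1:141626302-141626702, a flanking LTR, had 129 of its 134 reads in DNMT TKO shKap1 library 2, with 0 in the other DNMT TKO shKap1 libraries, and was not called (adjusted p = 0.49).

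The 3 LTRs called lower were weakly covered. IAPLTR2_Mm at chr1:91986501-91986939, in an intron of Iqca, went from 3, 5 and 6 reads to 0, 0 and 1 in WT cells (adjusted p = 0.026). In DNMT TKO cells IAPLTR3 at chr10:119595869-119596205, in an intron of Irak3, went from 3, 4 and 1 reads to 0 (adjusted p = 0.032), and IAPLTR2b at chr5:137425627-137425935 from 0, 5 and 5 to 0 (adjusted p = 0.015).

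KAP1 binding was common on these LTRs and H3K9me3 less so. A KAP1 region overlapped 161 of the 202 tested LTRs (79.7%, exact binomial 95% interval 73.5 to 85.0) and 2073 of the 3449 annotated ones (60.1%). A region of H3K9me3, the mark that SETDB1 sets, overlapped 105 tested (52.0%, 44.9 to 59.0) and 678 annotated LTRs (19.7%), and 104 of those 105 were in the deposited set of KAP1-dependent regions. The paper reports that Kap1 depletion removed H3K9me3 almost entirely at all enriched regions, so this count is not particular to the LTRs. Tested LTRs passed a minimum on reads that included shKap1 libraries, so the tested and annotated shares cannot be compared free of that selection. IAPEz proviruses with IAPLTR1 had a KAP1 region in 100% and an H3K9me3 region in 98.1% of cases. Flanking tested LTRs had H3K9me3 in 21 of 25 cases and free-standing ones in 84 of 177 (47.5%). The share with a KAP1 region varied by name, from 92.3% of annotated IAPLTR2a and 85.0% of IAPLTR1a_Mm to 53.7% of IAPLTR2b, 40.2% of IAPEY_LTR, 11.2% of IAPLTR4 and 2.06% of IAPLTR3. The free-standing IAPLTR4 sum rose strongly in a name with few KAP1 regions, but much of it fell on the LTRs at chr1:95795501 and chr1:95864611. The IAPLTR3 sum, in the name with the smallest share, was called in no genotype and held few reads. These shares are over all annotated LTRs of a name, flanking ones included, and their relation to the rise was not tested.

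Among free-standing LTRs, the knockdown changed the 540 with an H3K9me3 region by 2.44 ± 0.11 (SE), 2.52 ± 0.10 and 2.50 ± 0.12 on the log2 scale in WT, DNMT TKO and TET TKO cells. The 2476 without one changed by 1.01, 2.03 and 1.04. In CPM the first set went from 3.45 to 18.8 in WT, from 7.13 to 40.8 in DNMT TKO and from 6.76 to 38.4 in TET TKO cells, and the second from 14.5 to 29.3, from 11.5 to 47.3 and from 21.8 to 44.9. The difference between the sets averaged 1.13 over genotypes (1.43 in WT, 0.49 in DNMT TKO and 1.46 in TET TKO cells), with an exact two-sided permutation p = 0.000833, in a test added after the data were seen. Without the 5 LTRs with most reads the mean was 0.63 (exact permutation p = 0.0108), with -0.09 in DNMT TKO cells. The H3K9me3 set then still held IAPLTR2a at chr11:72876966-72877368, with 585 reads. In DNMT TKO cells that LTR went from 3.30 to 2.67 CPM with the knockdown. LTRs with H3K9me3 were also 1.04 ± 0.11 higher in DNMT TKO than in WT cells with shEmpty (edgeR, adjusted p = 5.5e-07). IAPLTR2a at chr11:72876966-72877368 alone went from 0.0472 to 3.30 CPM in that contrast. Neither this difference nor the one between the sets was computed without that LTR alone. The 1917 free-standing LTRs with a KAP1 region changed by 1.48, 2.41 and 1.63 and the 1099 without one by 1.23, 1.51 and 1.16, a mean difference of 0.53 (exact permutation p = 0.00167). This test was likewise added after the data were seen. The difference was 0.25 in WT, 0.88 in DNMT TKO and 0.47 in TET TKO cells.

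**Figure D4:**
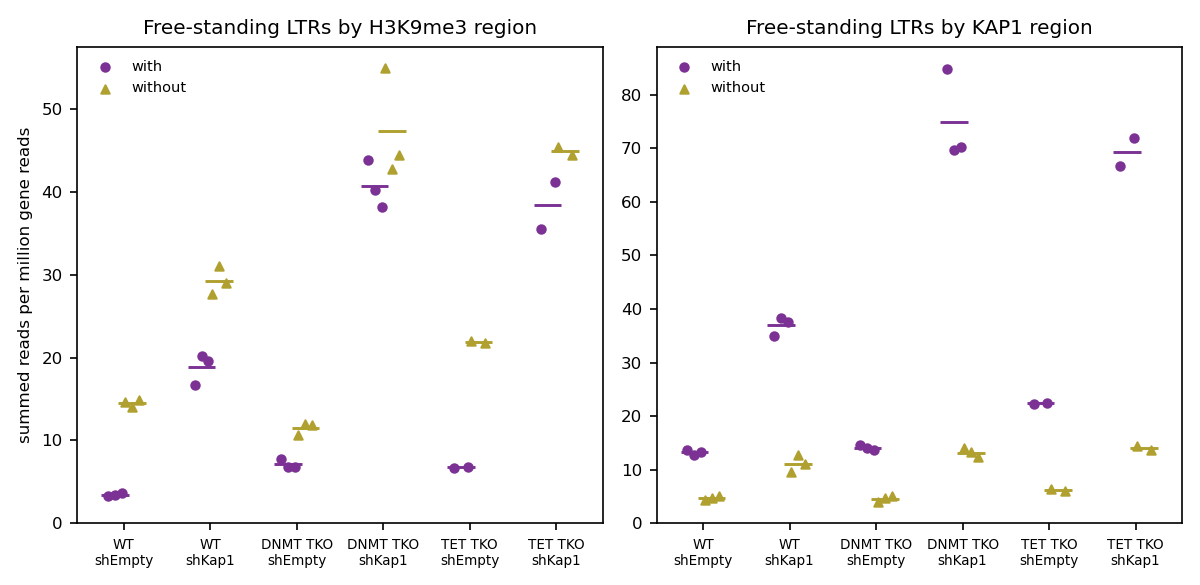
Summed CPM in each library of free-standing LTRs with and without an overlapping H3K9me3 region and with and without an overlapping KAP1 region, by genotype and hairpin, with points for libraries and bars for group means. The 540 LTRs with H3K9me3 sum to 3.45 CPM in WT shEmpty and the 2476 without it to 14.5 CPM, sets of unequal size, and both sums are higher in every shKap1 group.

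Marks of active and Polycomb-repressed promoters were rare. H3K4me3, found at active promoters, overlapped 7 of the 202 tested LTRs (3.47%) and 21 of the 3449 annotated ones (0.609%). H3K27me3 overlapped 0 of 202, which allows a share of up to 1.49% (3 counts of the total, with an exact binomial upper limit of 1.81%), when a peak in both replicates was required, and 2 when a peak in either was enough. The 7 LTRs, chosen after their values were seen, did not share one expression pattern. The LTRs at chr5:115149485-115149936 and chr11:19737357-19737836, high in TET TKO cells, and the LTR in Dkc1 were among them. IAPLTR2_Mm at chr19:5406363-5406822 took 0 reads in all shEmpty libraries and 6, 8 and 9, 6, 12 and 6, and 18 and 10 reads in WT, DNMT TKO and TET TKO shKap1 libraries. IAPEY_LTR at chr17:21867412-21867795 rose in DNMT TKO cells from 0, 2 and 6 to 15, 25 and 24 reads.

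The 5hmC reads came from 1 replicate, so the values have no replicate check. Over the 158 KAP1 regions on tested LTRs with at least 10 input reads, the median log2 change of 5hmC over input with the knockdown was 0.91 (interquartile range 0.28 to 1.41), and 132 of them (83.5%) were above 0. The median was 0.87 on free-standing LTRs and 1.15 on flanking ones, beside 1.31 on IAPLTR1 proviruses, 0.90 on IAPLTR2 proviruses and 0.64 over all 25992 KAP1 regions. Regions on annotated LTRs under 16 RNA reads had a median of 0.42, a split by the minimum on reads that included shKap1 libraries. LTRs called higher in WT cells (0.93, 48 regions) and the others (0.89, 110 regions) had nearly equal medians. The values moved with the scaling, to 0.52 when libraries were scaled to H3K4me3 regions.

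Genes near the tested LTRs were counted beside all genes. Of 60 tested genes with a start within 10 kb of one, 13 were called higher and 3 lower with the knockdown in WT cells (10.8% and 6.54% of all 20321 genes), 11 and 0 in DNMT TKO (10.1% and 2.41%) and 9 and 4 in TET TKO cells (8.05% and 4.46%). The shares near the LTRs were 21.7% higher and 5% lower in WT cells. The LTRs had passed a minimum on reads that included shKap1 libraries, and reads of a gene can fall on an LTR inside it. These shares are therefore not free of that selection. The genes named next were chosen as called in WT cells and near an LTR called higher there. Nt5e, an ecto-5'-nucleotidase, starts 3741 bp from an IAPLTR1a_Mm LTR and went from 20.2 to 99.0 CPM in WT cells, a change of 2.29 ± 0.45 (SE, edgeR adjusted p = 0.0014), and it was not called in DNMT TKO (0.87, adjusted p = 0.22) or TET TKO cells (1.37, adjusted p = 0.085). Its effect in these cells was not called different from that in WT cells (edgeR, adjusted p = 0.19 and 0.49). Gm15950 starts 8599 bp from the LTR in Mpv17l on the other strand and changed by 4.09 ± 0.34 (adjusted p = 2.9e-08) in WT cells, from 0.120 to 2.14 CPM, by 3.37 in DNMT TKO and by 0.74 in TET TKO cells. The TET TKO change, from 2.18 to 3.63 CPM, was under 2-fold and no call (edgeR, adjusted p = 0.035). The effect on Gm15950 in TET TKO cells differed from that in WT cells by -3.35 (adjusted p = 0.00012). Gm9590, which starts 2929 bp from an IAPLTR2_Mm, changed by 1.56 ± 0.26 (adjusted p = 8.6e-05) in WT cells. It changed by 0.79 in DNMT TKO (adjusted p = 0.025) and by 0.70 in TET TKO cells (adjusted p = 0.099), both under 2-fold and neither of them a call. The effect on Gm9590 was not called different from that in WT cells in either (edgeR, adjusted p = 0.18 and 0.21).

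Among 22 tested rows of 21 listed genes of KAP1 repression and DNA methylation, 3 were called higher and 1 lower with the knockdown in WT cells, 0 and 1 in DNMT TKO and 1 and 1 in TET TKO cells, the lower one being Trim28 itself. Over all 20321 genes the shares called higher were 10.8%, 10.1% and 8.05% and those called lower 6.54%, 2.41% and 4.46%, so the count of calls over the list was near the background. At an adjusted p under 0.05 without the fold threshold (edgeR), 5, 4 and 5 of the 22 rows were higher and 11, 11 and 6 lower. Trim28 was thus not the only listed gene that fell, and no share over all genes is given at this threshold. The H3K9 methyltransferase gene Suv39h1 changed by 1.21 ± 0.11 (SE) in WT cells (edgeR, adjusted p = 1.1e-07), the de novo DNA methyltransferase gene Dnmt3a by 1.15 ± 0.13 in WT (adjusted p = 5.2e-06) and 1.26 ± 0.17 in TET TKO cells (adjusted p = 3.9e-05), and the oxidase gene Tet3 by 1.80 ± 0.14 in WT cells (adjusted p = 1.8e-08). Setdb1 changed by -0.29 in WT cells, and Uhrf1, which brings DNMT1 to replicated DNA, by -0.99.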

How the data were processed

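The authors deposited raw read counts per gene (featureCounts) and per TE integrant (unique reads, counted over a repeat track in which LTRs and internal parts of one element were merged) for single-end stranded mRNA libraries on mm9, region scores for ChIP peaks (MACS, and SICER for H3K9me3), and read counts of 5hmC immunoprecipitation and input over region sets. The submitters' processing notes name HISAT2 2.0.1, Bowtie2 2.2.1, MACS 1.4, SICER 1.1, featureCounts 1.5.1 and bedtools 2.25. The deposited peak scores were used only for positions. Libraries were grouped by the labels, and 4 hMeDIP libraries of the second replicate, whose labels and names disagree, were left out.

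Counts of all 123880 TE integrants with at least 16 reads were fitted together over 16 libraries with edgeR 4.0.16 (quasi-likelihood, robust), with gene library sizes and TMM factors, and p-values were adjusted by Benjamini-Hochberg over all of them. A call needed an adjusted p under 0.05 and 2-fold. Sums over 1198 TE names and counts of 20321 genes were fitted in the same way. Folds against groups at 0 used a floor of 3 reads over the group, and intervals cover counting error only. Overlap with a region meant at least 1 bp. For 5hmC a pseudocount of 1 read was added. Alternatives used limma 3.58.1 and DESeq2 1.42.0, other read minima, left-out libraries and the replicate number as a block. Scripts ran in R 4.3.3 and Python 3.11.15 and were tested on simulated data. The replicate numbers paired samples in WT (correlations of gene deviations 0.56, 0.41 and 0.40) and DNMT TKO cells (0.64, 0.47 and 0.25), and not in TET TKO cells (-0.04, 2 pairs). Over the 202 LTRs themselves the correlations were 0.10, 0.15 and -0.06 in WT and 0.08, -0.04 and -0.03 in DNMT TKO cells. The pairing came from the gene correlations, not from the labels.

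Named LTRs were those with at least 100 reads, called and with groups that did not overlap, taken by the largest changes of each contrast, plus the 5 with most reads. Other LTRs were named after their values were seen: those with few or no reads in a genotype, those called lower, those on H3K4me3 peaks and those with a called difference between genotypes. The members and lists were chosen with earlier results of these data known.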

Additional observations from a re-analysis of the deposited data

Results flagged for a closer look

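The 7 results below differed between genotypes by a test of the difference itself, all by edgeR. The knockdown effect on the summed reads of all solitary LTRs was larger in DNMT TKO than in WT cells by 0.79 on the log2 scale, or by 0.37 (adjusted p = 0.059, no call) without the 5 LTRs with most reads. By name it was larger by 3.67 for IAPLTR1a_Mm, but -0.50 without the 5 LTRs with most reads and -0.32 without LTRs on exons, and by 1.06 for IAPLTR2_Mm. The effect in DNMT TKO cells differed from that in WT cells for 3 single LTRs, by -2.65 for IAPLTR2a at chr11:72876966-72877368, by -4.69 for IAPLTR2_Mm at chr13:66720320-66720748 (a fit against WT shEmpty libraries at 0 reads, with adjusted p = 0.053 and no call with the replicate block) and by -3.22 for IAPLTR2_Mm at chr13:94425631-94426065. Between TET TKO and WT cells it differed by -3.94 for IAPLTR2_Mm at chr16:13930091-13930567. Kap1 mRNA was lowered less in DNMT TKO than in WT cells, by 1.28 on the log2 scale, and its part in these differences was not tested. No group held 4 or more libraries, so no single library was checked as standing apart from its group.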

How the results depend on the processing

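The rise of the summed reads on knockdown in each genotype and the fall of the ratio to proviruses kept their direction and call under every alternative run, while counts of calls moved more. With DESeq2 the calls were 36, 61 and 40 on knockdown in WT, DNMT TKO and TET TKO cells (64, 111 and 74 with edgeR), 1 for the difference of DNMT TKO from WT (3 with edgeR), and 10 and 7 for DNMT TKO and TET TKO against WT with shEmpty (17 and 13). With at least 50 reads, which leaves 63 of the 202 LTRs, the calls were 32, 38 and 27 on knockdown and 11 and 8 with shEmpty. With limma-voom the difference of the knockdown effect had 25 calls in DNMT TKO and 9 in TET TKO cells (1 with edgeR). Without a read filter there was 1 call for the DNMT TKO difference and 11 for DNMT TKO with shEmpty, without LTRs on exons 1, and with only the groups of the contrast 2 for the TET TKO difference. Without the 5 LTRs with most reads, a choice added after seeing the data, the DNMT TKO difference of the summed reads was 0.37 and the DNMT TKO level with shEmpty 0.67. With scaling from TE counts, over all LTRs, the DNMT TKO level with shEmpty was 0.31. IAPLTR1a_Mm reversed: its DNMT TKO difference was -0.32 without LTRs on exons and -0.50 without those 5 LTRs, and its shEmpty difference 1.60 under both. Genes near LTRs called were 7, 3 and 5 of 26 within 5 kb and 64, 47 and 49 of 313 within 50 kb (16, 11 and 13 of 60 within 10 kb). The 5hmC median was 0.52 with scaling to H3K4me3 regions and 0.67 without input.

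Leaving out 1 library gave 45 to 64, 93 to 111 and 52 to 75 calls on knockdown in WT, DNMT TKO and TET TKO cells. It gave 0 to 3 and 1 to 2 for the differences of DNMT TKO and TET TKO from WT, the 2 without DNMT TKO shKap1 library 3. With shEmpty it gave 11 to 17 and 9 to 14. The cause of these moves was not tested. With the replicate number as a block the calls on knockdown were 62, 110 and 69, those of the differences 2 and 1, and those with shEmpty 17 and 11. Under the block the LTR at chr13:66720320-66720748 lost 2 calls (adjusted p = 0.053 and 0.075), and no other call of a named LTR changed. The median tested LTR had 33.5 reads over 16 libraries, which limits the precision of single LTRs.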
